A study of Mus musculus with 13 samples.

Results

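Chromatin accessibility was examined at 37 imprinted genes in cultured mouse oligodendrocyte progenitor cells (OPCs), the dividing glial cells that give rise to myelinating oligodendrocytes. The genes were taken by name from a list of 20 known imprinted domains and matched to the GENCODE M21 annotation of mm10, where they are 37 of 55450 genes. Imprinted genes are expressed from the allele of a single parent. The choice of allele is carried by DNA methylation laid down in egg or sperm at differentially methylated regions (DMRs), many of which overlap a CpG-rich promoter. The zinc finger protein ZFP57 protects the methylated copy of such regions after fertilization, and CTCF binds the unmethylated copy of some of them. At a germline DMR, a single parental copy is therefore unmethylated. The peak lists carry no allele information, so a peak at such a promoter could come from either copy.

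ATAC-seq, in which the Tn5 transposase cuts open chromatin, was measured in 13 libraries. OPCs were taken from litters of AMGFAP-Cre;K27M mice at P5 to P7. The labels spell the Cre line so, and the study names it hGFAP-Cre. The OPCs were separated by region and genotype, pooled, selected on anti-PDGFRa plates after depletion of endothelial cells and microglia, and kept in proliferation medium. From brainstem there were 3 Control and 3 K27M cultures, and from telencephalon 3 Control and 4 K27M cultures. Telencephalon means the dorsal part, with cortex, corpus callosum and hippocampus. In the K27M mice, H3.3 K27M is a conditional knock-in at the endogenous H3-3a gene that is switched on where human GFAP promoter-driven Cre is active, in neural stem and progenitor cells and what arises from them. The strain background is FVB, and the Controls were littermates, which the study's methods describe in another analysis as lacking Cre. Each library is therefore a pool of animals, expanded in culture, and no culture had been induced to differentiate. The promoter of H3-3a itself (listed as H3f3a) had a peak in all 13 libraries, which says nothing of the allele it carries.

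For each called peak the lists give a fold enrichment, which is the signal over the local background of the same library. A gene was said to have a promoter peak when a called peak overlapped the window from 2 kb upstream to 1 kb downstream of any of its transcription starts, and the peak with the highest fold enrichment gave the gene its value. The within-list percentile is the rank of that fold enrichment among all peaks of the same library. No read counts are given, so depth is unknown, and a promoter without a peak was not detected at the depth of that library. Lists held 16879 to 52466 peaks, and Control telencephalon culture 59 had the shortest list. Promoters of 6 of 7 OPC marker genes carried a peak in every library (Cspg4 in 3 of 13), as did 2 of 5 astrocyte and 2 of 5 neuron markers, and none of the 5 microglia or 5 endothelium markers. The share over all protein-coding genes was 41.96%. Of the microglia markers, 3 had a peak in some libraries (P2ry12 in 12) and 2 in none. Of the endothelium markers, 3 had a peak in some libraries (Kdr in 10) and 2 in none.

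The promoters of 6 imprinted genes are printed to show the range of sequence under these peaks. Ube3a had the highest mean percentile and Nnat the lowest among promoters found in at least 12 libraries. Kcnq1ot1 is a germline DMR promoter of an antisense RNA, and Peg3 shares its DMR promoter with Usp29 on the other strand. Ndn depends on the annotated start, and Dlk1 had no promoter peak in any library. Each sequence is the RefSeq window on GRCm38.p6, the assembly of mm10, from 250 bases before to 50 bases after the start, 5′ to 3′ on the strand of the gene, with each CpG in capitals. They lie at chr7:59228500-59228799 (+) for Ube3a, chr7:143296498-143296797 (-) for Kcnq1ot1, chr7:6730370-6730669 (-) for Peg3, chr2:157559828-157560127 (+) for Nnat, chr7:62348027-62348326 (+) for Ndn and chr12:109452573-109452872 (+) for Dlk1.
Ube3a: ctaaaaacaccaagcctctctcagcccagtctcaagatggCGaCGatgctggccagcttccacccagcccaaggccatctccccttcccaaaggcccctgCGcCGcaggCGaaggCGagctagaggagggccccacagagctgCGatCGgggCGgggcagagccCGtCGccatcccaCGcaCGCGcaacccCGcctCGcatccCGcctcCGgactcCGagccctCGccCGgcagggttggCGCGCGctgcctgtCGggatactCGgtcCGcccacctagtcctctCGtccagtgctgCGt
Kcnq1ot1: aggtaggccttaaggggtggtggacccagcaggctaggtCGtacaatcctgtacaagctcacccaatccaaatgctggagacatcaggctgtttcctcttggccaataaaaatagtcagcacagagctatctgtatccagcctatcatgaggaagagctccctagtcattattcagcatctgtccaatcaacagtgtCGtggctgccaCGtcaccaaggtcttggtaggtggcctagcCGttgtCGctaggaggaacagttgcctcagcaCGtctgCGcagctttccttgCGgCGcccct
Peg3: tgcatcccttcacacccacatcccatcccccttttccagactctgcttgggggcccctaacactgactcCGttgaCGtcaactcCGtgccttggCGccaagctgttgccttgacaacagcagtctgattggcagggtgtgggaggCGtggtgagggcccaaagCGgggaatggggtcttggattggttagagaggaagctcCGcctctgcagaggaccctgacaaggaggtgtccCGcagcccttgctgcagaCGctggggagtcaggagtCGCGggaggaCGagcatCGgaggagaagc
Nnat: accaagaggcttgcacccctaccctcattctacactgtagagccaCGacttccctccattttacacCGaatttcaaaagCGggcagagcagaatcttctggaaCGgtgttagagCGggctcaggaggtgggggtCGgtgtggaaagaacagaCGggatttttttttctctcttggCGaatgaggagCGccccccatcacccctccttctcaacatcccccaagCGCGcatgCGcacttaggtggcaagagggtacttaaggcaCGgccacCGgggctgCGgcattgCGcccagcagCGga
Ndn: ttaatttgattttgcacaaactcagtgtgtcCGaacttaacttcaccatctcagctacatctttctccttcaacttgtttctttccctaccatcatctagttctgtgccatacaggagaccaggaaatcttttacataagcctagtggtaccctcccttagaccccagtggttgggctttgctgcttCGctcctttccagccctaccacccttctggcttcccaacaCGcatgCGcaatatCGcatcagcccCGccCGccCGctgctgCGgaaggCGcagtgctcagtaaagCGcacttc
Dlk1: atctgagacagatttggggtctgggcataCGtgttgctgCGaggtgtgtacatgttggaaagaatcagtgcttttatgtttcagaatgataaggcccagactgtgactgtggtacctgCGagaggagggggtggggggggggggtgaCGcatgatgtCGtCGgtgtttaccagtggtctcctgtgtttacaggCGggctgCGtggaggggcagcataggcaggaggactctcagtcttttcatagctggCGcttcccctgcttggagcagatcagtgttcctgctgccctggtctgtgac

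The Ube3a window held 29 CpG, with a ratio of observed to expected CpG of 0.84, and was under a peak in 13 libraries. The Kcnq1ot1 window held 9 CpG (ratio 0.42) and the Peg3 window 13 CpG (ratio 0.46), and both were also under a peak in 13 libraries. The Dlk1 window, with 9 CpG and a ratio of 0.43, was under a peak in none. CpG content of these windows thus did not order them by detection. RefSeq windows were matched for 31 of the 37 genes, giving 49 windows. Of these, 24 (49.0%) had a CpG ratio of at least 0.6, against 35.8% of all 32851 RefSeq windows and 84.1% of the 8279 windows under a peak in all libraries. Windows with low CpG under frequent peaks included Airn (ratio 0.19, peak in 11 libraries), while the Grb10 window at chr11:12037371-12037670, at a ratio of 0.97, had no peak in any library. The letters TGCCGC, the core of the ZFP57 motif, were found on either strand in 12 of the 49 windows (24.5%), against 11.6% of all windows and 22.4% of windows under a peak in all libraries. GGNGGCAG, a part of the CTCF motif, was found on either strand in 8 windows (16.3%). It was found in 12.6% of all windows and 16.2% of windows under a peak in all libraries. When N is C, the second motif contains the first on the opposite strand, so that matches of both can coincide. A match in a window is a description of its letters, not a binding site.

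A promoter peak was called in every library for 16 of the 37 imprinted genes, in 1 to 12 libraries for 16 and in none for 5. The share found in all libraries was 43.24%, beside 20.71% of all genes and 42% of protein-coding genes, so it lay near the background of coding genes. Among the 29 protein-coding members 14 were found in all libraries, and among the 8 noncoding members 2 were (Kcnq1ot1 and Peg13). The 16 genes were Kcnq1ot1, Peg3, Usp29, Zim1, Peg10, Sgce, Plagl1, Grb10, Magel2, Mkrn3, Ube3a, Peg13, Inpp5f, Impact, Commd1 and H13. A further 7 genes, Igf2r, Mest, Snrpn, Nnat, Gnas, Nespas and Zrsr1, lacked a peak only in Control telencephalon culture 59. Without that library, 23 genes (62.16%) had a peak in all 12 that remain, beside 49.48% of protein-coding genes.

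**Figure D1:**
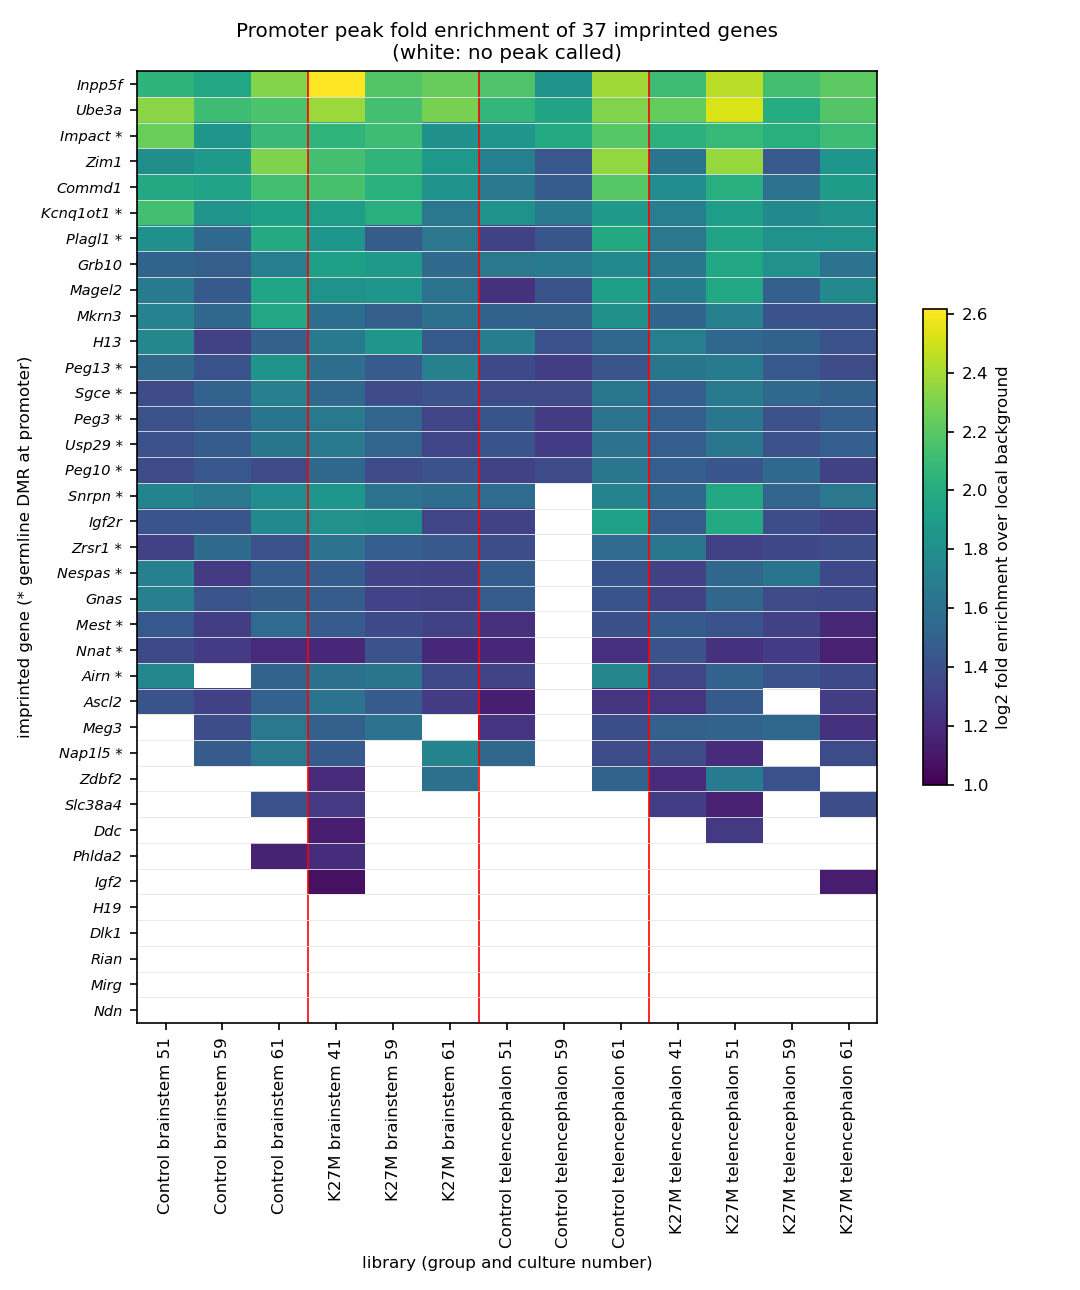
Promoter peak fold enrichment (log2 colour scale) of the 37 imprinted genes (vertical axis, ordered by number of libraries and mean fold) in the 13 libraries (horizontal axis, red lines between groups), with white for no called peak and an asterisk for a germline DMR at the promoter. The upper 16 genes are filled in every library, the next 7 lack only Control telencephalon culture 59, and the lowest 5 are empty.

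Imprinted promoters were called more often in the libraries with longer lists, and so were protein-coding promoters in general. Of the latter, 44.38% were called in the shortest list (16879 peaks) and 63.98% in the longest (52466 peaks). The count of imprinted genes with a promoter peak was 25, 26 and 29 in Control brainstem, 32, 26 and 27 in K27M brainstem, 27, 16 and 28 in Control telencephalon and 29, 30, 26 and 29 in K27M telencephalon. When each list was reduced to its 16879 most significant peaks, the counts became 18, 12 and 12, then 18, 14 and 21, then 16, 16 and 14, and then 21, 17, 15 and 15 in the same order. At this equal number, 42.29% to 45.45% of protein-coding promoters were called per library. The groups overlapped in both sets of counts of imprinted genes. Only 7 genes then kept a peak in all libraries (Kcnq1ot1, Peg3, Usp29, Ube3a, Inpp5f, Impact and Commd1), a share of 18.92% beside 30.25% of protein-coding genes. With peaks limited to a −log10 p of at least 10, only Ube3a and Impact had a promoter peak in all 13 libraries.

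**Figure D2:**
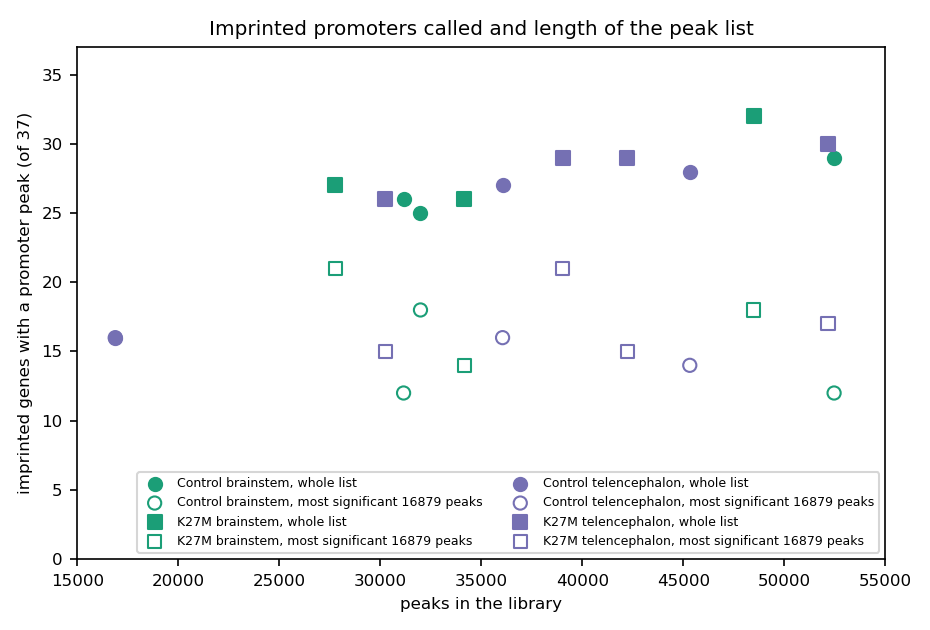
Imprinted genes with a promoter peak out of 37 (vertical axis) against the number of peaks in the library (horizontal axis, number), for whole lists (filled) and for the 16879 most significant peaks of each (open), with circles for Control, squares for K27M, green for brainstem and purple for telencephalon. Filled points run from 16 to 32 and open points from 12 to 21, and the groups overlap in both.

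Among the 16 genes found in all libraries, mean fold ran from 2.71 to 4.65, with SDs over the 13 libraries of 0.19 to 0.85. Ube3a, an E3 ubiquitin ligase that is expressed from the maternal allele in neurons and from both alleles in most other cells, had the highest mean percentile, 96.79. Its fold enrichment was 5.03, 4.32 and 4.46 in Control brainstem, 5.18, 4.39 and 4.88 in K27M brainstem, 4.20, 3.85 and 4.95 in Control telencephalon and 4.71, 5.76, 4.01 and 4.55 in K27M telencephalon. The groups overlapped, with the lowest value in Control telencephalon culture 59. Inpp5f, an inositol phosphatase, reached a mean percentile of 96.6. Its values were 4.15, 3.91 and 4.98 in Control brainstem, 6.13, 4.54 and 4.73 in K27M brainstem, 4.51, 3.55 and 5.23 in Control telencephalon and 4.31, 5.46, 4.39 and 4.62 in K27M telencephalon. The highest single value was in K27M brainstem culture 41, and the groups overlapped. Impact, a regulator of translation under amino acid starvation, had a mean percentile of 91.18 with fold enrichments of 4.78, 3.62 and 4.26, then 4.15, 4.32 and 3.51, then 3.59, 3.96 and 4.59, and then 4.11, 4.24, 4.03 and 4.31 in the same group order. It was the only gene with a germline DMR at its promoter among these 3.

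At the low end of the genes found in all libraries stood Peg10, a retrotransposon-derived gene, with a mean percentile of 31.77. Its fold enrichment was 2.58, 2.71 and 2.58 in Control brainstem, 2.92, 2.59 and 2.66 in K27M brainstem, 2.498, 2.595 and 3.102 in Control telencephalon and 2.80, 2.70, 2.94 and 2.49 in K27M telencephalon. All 13 values lay below the lowest value of Impact, Ube3a or Inpp5f. Peg3, a zinc finger gene, and Usp29, a ubiquitin-specific peptidase gene, start close to each other on opposite strands and shared a single peak with a mean percentile of 38.52. That peak measured 2.64, 2.78 and 3.09 in Control brainstem, 3.15, 2.89 and 2.53 in K27M brainstem, 2.68, 2.44 and 3.04 in Control telencephalon and 2.80, 3.11, 2.64 and 2.79 in K27M telencephalon. These 2 genes are therefore a single measurement, and Peg10 and Sgce (epsilon-sarcoglycan) likewise shared a merged peak of 2996 bp at chr6:4746632-4749627. Sgce has other starts, which gave it a mean fold of 2.84 ± 0.23 (SD, n = 13) beside 2.71 ± 0.19 (SD, n = 13) for Peg10.

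Promoters at germline DMRs tended to carry wide peaks of low fold enrichment. All 15 genes of this class, which was assigned from general knowledge of the domains, had a promoter peak in at least 9 libraries, and 8 of them in all 13. The class was assigned by gene, not by peak, so a gene outside it may have its peak at a DMR. Grb10 (1028 bp, fold 3.27), at an internal start, and Gnas (1019 bp, 2.71), which shared the Nespas peak, were left out. Neither peak was wider than 1421 bp. The median peak width of the 15 genes was 1826 bp and their median mean fold 2.81. For the 8 found in all 13 libraries the medians were 1883 bp and 2.86, whereas the 11483 promoters with a peak in every library had medians of 1152 bp and 3.55. Of the 8 DMR promoters found in all libraries, 6 were wider than 1421 bp, the limit of the widest 25% of all promoters, and 5 had both such a width and a fold below 3.16, the limit of the lowest 25%. Those 5 genes (Peg3, Usp29, Peg10, Sgce and Peg13) stand on 3 separate loci. Over all 15 genes of the class, 7 (46.7%) were wide and low by both limits, with Mest and Nnat added. Among all promoters found in every library, 11.4% were wide and low by both limits, and among the 8 other imprinted genes found in all libraries 2 were (Mkrn3 and H13). Both of these sets were taken at all 13 libraries, so they stand beside the 5 of 8 and not beside the 7 of 15. Wide promoter peaks had a lower fold in general, since the median of mean fold was 3.23 in the widest group of promoters and 3.54 in the narrowest. Width and fold come from the same peak calls, the 25% limits were chosen after the values had been seen, and no test was made of this description.

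**Figure D3:**
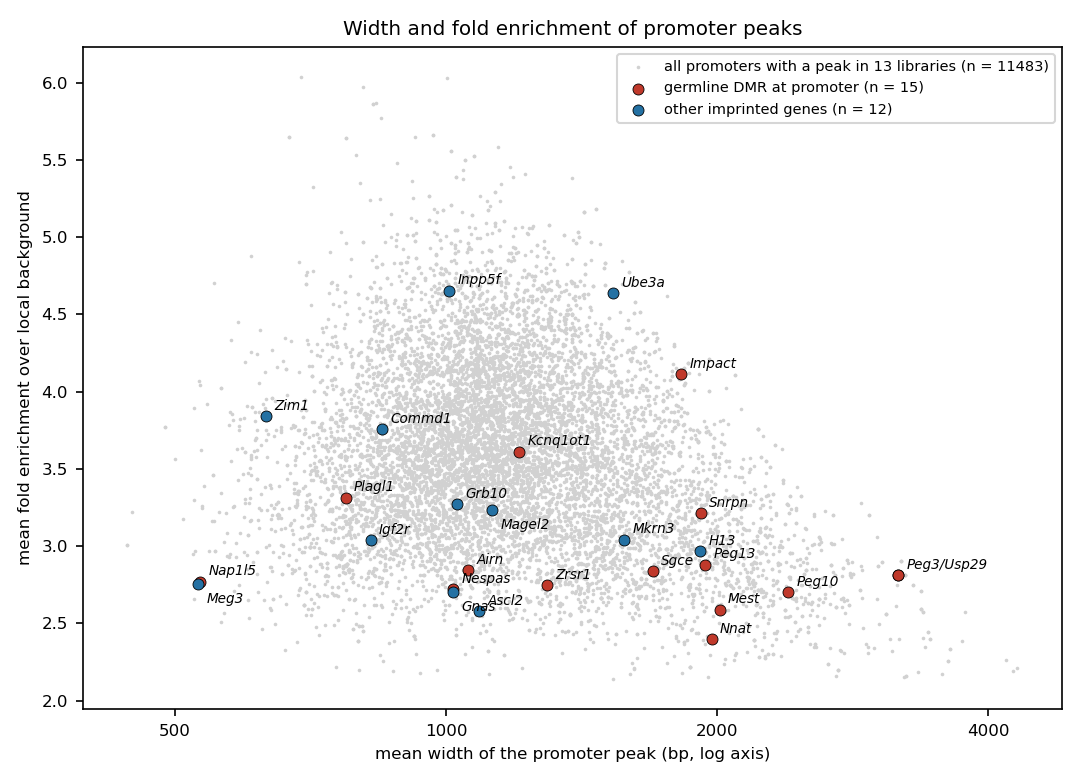
Mean width of the promoter peak (horizontal log axis, bp) against mean fold enrichment (vertical axis) for imprinted genes with a promoter peak in at least 9 libraries (red, 15 with a germline DMR at the promoter; blue, 12 others) over the 11483 promoters found in all libraries (grey). Red points such as Peg3/Usp29 (3176 bp, fold 2.81) and Peg10 (2401 bp, 2.71) lie at the wide, low edge, and Ube3a and Inpp5f lie above 4.5 in fold.

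Among the imprinted genes, the 7 genes with the widest promoter peaks all had a germline DMR there. The peak of Peg3 and Usp29 was 3176 ± 116 bp wide (SD, n = 13), more than 99.7% of all promoters found in every library. Peg10 stood at 2401 ± 450 bp, Mest, which encodes a protein with a hydrolase fold, at 2013 ± 792 bp (n = 12), Nnat (neuronatin) at 1973 ± 1015 bp (n = 12), the noncoding RNA Peg13 at 1940 ± 602 bp and Snrpn, a spliceosomal protein gene, at 1920 ± 331 bp (n = 12), followed by H13, of the other class, at 1917 ± 740 bp. Impact was wide as well, at 1826 ± 307 bp, but its mean fold of 4.11 exceeded that of 81.4% of all promoters. The narrowest DMR promoters were Nap1l5, at 533 ± 185 bp (n = 9), and Plagl1, a zinc finger transcription factor gene, at 774 ± 295 bp. Inpp5f held a promoter peak of high and another of low fold enrichment within a single gene. Its upstream promoter peak (chr7:128610582-128612255) had a mean percentile of 96.6, and a merged peak of 3832 bp at the internal start (chr7:128687695-128691526), found in 13 libraries, had a mean fold of 2.83 ± 0.44 (SD) and a mean percentile of 37.84. A merged width spans the peaks of all libraries and cannot be set beside the mean widths above, so the internal peak was not ranked by width. The paternally expressed transcript of this gene starts at an internal promoter.

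Several imprinted genes are retrogenes or short transcripts inside an intron of a host gene. Commd1, a COMM domain gene, had a promoter peak in all 13 libraries with a mean fold of 3.76 ± 0.56 (SD), and Zrsr1, the splicing factor-like retrogene within it, in 12 libraries at 2.75 ± 0.22. Nap1l5, a nucleosome assembly protein-like retrogene, was found in 9 libraries at a mean fold of 2.77, and its host Herc3 in 13 at 3.4. H13, which encodes signal peptide peptidase, was found in 13 libraries at 2.97 ± 0.33, and the retrogene Mcts2 in its intron in 11 at 2.93. Peg13 was found in 13 libraries at 2.88 ± 0.32, with no promoter peak at its host Trappc9 in any. The peak of Nnat was shared with starts of its host Blcap. The peaks of Zrsr1 and Nap1l5 also lie in promoter windows of Commd1 and Herc3, so that the value of these hosts could not fall below that of the guest, and no order of host and guest was read from the pairs.

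In the H19-Igf2 domain, promoters were seldom called. Igf2, a fetal growth factor, had a promoter peak in K27M brainstem culture 41 (fold 2.1) and K27M telencephalon culture 61 (2.18) only. H19, the maternally expressed noncoding RNA of this domain, had none by the window used. The nearest peak, at chr7:142580157-142582061, began 2014 bp upstream of the nearest H19 start, just outside the window, and was found in 10 libraries with a mean fold of 2.53 ± 0.23 (SD, n = 10). Its fold was 2.65 and 2.93 in Control brainstem, 2.52 and 2.43 in K27M brainstem, 2.15 and 2.75 in Control telencephalon and 2.39, 2.73, 2.41 and 2.35 in K27M telencephalon. This peak was picked out after its values were seen. The germline DMR that controls this domain lies upstream of H19.

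The Kcnq1ot1 domain held the strongest noncoding promoter. Kcnq1ot1, a long antisense RNA whose promoter is the germline DMR, stood at a mean fold of 3.61 ± 0.36 (SD, n = 13) and a mean percentile of 79.75. The maternally expressed genes of this domain were called in fewer libraries. Ascl2, a transcription factor gene, had a promoter peak in 11 libraries, with fold enrichments of 2.67, 2.49 and 2.85 in Control brainstem, 3.06, 2.75 and 2.44 in K27M brainstem, 2.197 and 2.364 in Control telencephalon and 2.36, 2.75 and 2.45 in K27M telencephalon. Phlda2, which restrains placental growth, was found only in Control brainstem culture 61 (2.23) and K27M brainstem culture 41 (2.32). In the Igf2r-Airn domain, Igf2r, a receptor that clears IGF2, was found in 12 libraries, at 2.69, 2.70 and 3.42, then 3.53, 3.49 and 2.53, then 2.49 and 3.80, and then 2.78, 3.97, 2.61 and 2.49 in the same group order. Airn, the antisense RNA from a DMR promoter within Igf2r, was found in 11, at 3.34 and 2.86, then 3.02, 3.08 and 2.56, then 2.51 and 3.33, and then 2.52, 2.84, 2.67 and 2.57. In Igf2r the groups overlapped. In Airn the genotypes overlapped within each region, and the regions within each genotype. Its lowest Control brainstem value (2.858) lay just above its highest K27M telencephalon value (2.841).

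In the Snrpn-Ube3a domain, Magel2, Mkrn3 and Ube3a had a promoter peak in every library. Snrpn, at the DMR promoter, was missing only from Control telencephalon culture 59. Its fold enrichment was 3.32, 3.13 and 3.45 in Control brainstem, 3.60, 3.05 and 2.99 in K27M brainstem, 2.96 and 3.28 in Control telencephalon and 2.92, 3.89, 2.88 and 3.12 in K27M telencephalon. Magel2, a MAGE family gene, and Mkrn3, a makorin gene, had mean folds of 3.23 ± 0.50 and 3.04 ± 0.36 (SD, n = 13). Ndn, which encodes necdin, had no promoter peak by the GENCODE M21 start, at position 62346569 of chromosome 7. The RefSeq start lies downstream of it, and by that start Ndn had a peak (chr7:62348064-62349423) in 12 of 13 libraries. Its fold was 4.08, 3.15 and 4.53 in Control brainstem, 3.96, 3.67 and 3.73 in K27M brainstem, 3.90 and 3.54 in Control telencephalon and 2.99, 4.48, 2.89 and 3.78 in K27M telencephalon. The absence of a promoter peak at Ndn was thus a matter of the annotated start.

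In the Dlk1-Meg3 domain, no promoter was found in all libraries. Meg3, a maternally expressed noncoding RNA, was found in 10 libraries, at 2.61 and 3.12 in Control brainstem, 2.82 and 3.07 in K27M brainstem, 2.37 and 2.62 in Control telencephalon and 2.81, 2.85, 2.93 and 2.34 in K27M telencephalon. Dlk1, a transmembrane protein related to Notch ligands, had no promoter peak, and its nearest peak was called in 2 libraries. Rian, a host of small nucleolar RNAs, and Mirg, a host of microRNAs, also had none at their starts. A peak within Rian (chr12:109607689-109609267) was found in 12 libraries at 2.95 ± 0.41 (SD), and a peak over the 3′ end of Mirg (chr12:109749217-109750875) in 11 at 2.90 ± 0.21 (SD). In the Grb10-Ddc domain on chromosome 11, Grb10, a receptor tyrosine kinase adaptor, was found in 13 libraries at an internal start. By RefSeq starts it was found in 1 library. Ddc, dopa decarboxylase, was found only in K27M brainstem culture 41 (2.19) and K27M telencephalon culture 51 (2.42).

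Mest, Nnat, Zrsr1, Gnas and Nespas lacked a peak only in Control telencephalon culture 59. Mest measured 2.72, 2.45 and 2.96 in Control brainstem, 2.76, 2.57 and 2.50 in K27M brainstem, 2.34 and 2.62 in Control telencephalon and 2.74, 2.65, 2.50 and 2.26 in K27M telencephalon. Nnat measured 2.57, 2.44 and 2.30, then 2.26, 2.66 and 2.27, then 2.27 and 2.33, and then 2.67, 2.34, 2.43 and 2.21. With a mean percentile of 10.46, Nnat stood at a percentile of 17.26 or lower in every list that held it but K27M telencephalon culture 41, where it stood at 36.9. Zrsr1 measured 2.50, 2.94 and 2.64, then 3.05, 2.80 and 2.73, then 2.61 and 2.96, and then 3.11, 2.49, 2.55 and 2.61. Gnas, which encodes the stimulatory G protein alpha subunit, measured 3.25, 2.69 and 2.79, then 2.77, 2.50 and 2.48, then 2.77 and 2.68, and then 2.48, 2.90, 2.59 and 2.56. These values came mostly from a merged peak at Nespas starts (chr2:174294702-174296310) that held no Gnas start. Merged peaks over starts of Gnas itself had mean folds of 2.46, 2.48 and 2.39. Nespas, its antisense RNA, took the same value as Gnas in most libraries. It differed in Control brainstem culture 59 (2.42) and K27M telencephalon culture 59 (3.10). In each of these genes the groups overlapped.

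Nap1l5, Slc38a4 and Zdbf2 were found in 9, 5 and 6 libraries. Nap1l5 measured 2.78 and 3.13 in Control brainstem, 2.75 and 3.30 in K27M brainstem, 2.90 and 2.599 in Control telencephalon and 2.59, 2.31 and 2.59 in K27M telencephalon. Slc38a4, an amino acid transporter gene, was found in 1 Control brainstem library (2.65), 1 K27M brainstem library (2.40) and 3 K27M telencephalon libraries (2.45, 2.21 and 2.61). Zdbf2, a zinc finger gene, was found in 2 K27M brainstem libraries (2.30 and 3.03), 1 Control telencephalon library (2.85) and 3 K27M telencephalon libraries (2.30, 3.16 and 2.66). Both were therefore found mainly among K27M libraries, Zdbf2 in 5 of 7 K27M against 1 of 6 Control libraries and Slc38a4 in 4 of 7 against 1 of 6. K27M lists held 27768 to 52164 peaks and Control lists 16879 to 52466, and the part of list length in this difference was not tested.

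Whether detection of a promoter differed by genotype or region was tested by Fisher's exact test, two-sided, on the 1815 promoters found in 5 to 8 libraries, where Zdbf2 and Slc38a4 were the only imprinted genes. By genotype, the unadjusted exact p was 0.103 for Zdbf2 and 0.266 for Slc38a4, and the adjusted p was 1.0 for both. By region, the exact p was 0.592 for Zdbf2 (2 of 6 brainstem and 4 of 7 telencephalon libraries) and 1.0 for Slc38a4 (2 of 6 and 3 of 7). No promoter of the 1815 passed the adjusted threshold of 0.05 by region (0%) or by genotype (0%), and an unadjusted exact p under 0.05 was reached by 39 (2.15%) and 22 (1.21%). With 6 against 7 libraries, a single promoter could not pass the adjustment unless many others were also fully separated. The adjusted result was therefore nearly fixed in advance, and nothing is concluded from it. In the lists of equal number, neither gene had a promoter peak in any library.

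Among the 16 imprinted genes found in all libraries, no difference in promoter fold enrichment between regions passed the test. Each log2 fold was centred on the median of its library, and limma was fitted over 11483 promoters with culture number as a block and Benjamini-Hochberg adjustment. The log2 difference, brainstem minus telencephalon, ran from -0.12 to 0.13 over the 16 genes, with 6 above and 10 below 0 and a median of -0.02, beside -0.01 over all promoters. None passed the adjusted threshold or an unadjusted p of 0.05, where 2 (0.0174%) and 583 (5.08%) of all promoters did. The smallest p belonged to Commd1, which measured 3.93, 3.81 and 4.38 in Control brainstem, 4.42, 4.09 and 3.53 in K27M brainstem, 3.14, 2.76 and 4.57 in Control telencephalon and 3.44, 4.03, 3.06 and 3.69 in K27M telencephalon. Its log2 difference was 0.13 ± 0.07 (SE), with an adjusted p of 0.952 in limma. Grb10 followed at -0.12 ± 0.06 (SE) and Peg10 at -0.12 ± 0.07 (SE), both at an adjusted p of 0.952 in limma, and the values of the regions overlapped in all 3 genes. The difference of Peg10 was -0.19 without K27M brainstem culture 61 and -0.07 without Control brainstem culture 61 or K27M brainstem culture 59. Without centring, it was -0.04 for Peg10, -0.04 for Grb10 and 0.21 for Commd1. For Ube3a the difference was 0.00 with a 95% interval from -0.15 to 0.15.

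By genotype, K27M minus Control, the 16 log2 differences ran from -0.17 to 0.12 with a median of -0.01, and 8 were positive. No promoter of the 11483 passed the adjusted threshold (0%), and 499 (4.35%) had an unadjusted p under 0.05 in limma, among them 1 of the 16 imprinted genes. That gene was Mkrn3, a makorin of the Snrpn-Ube3a domain. It measured 3.29, 2.90 and 3.90 in Control brainstem, 3.00, 2.81 and 3.03 in K27M brainstem, 2.83, 2.81 and 3.51 in Control telencephalon and 2.87, 3.26, 2.67 and 2.65 in K27M telencephalon. The K27M libraries sat lower on average, but the genotypes overlapped, and the log2 difference of -0.17 ± 0.08 (SE) had an adjusted p of 0.999 in limma. The other smallest p-values were those of Inpp5f (0.12 ± 0.07, SE) and Grb10 (0.12 ± 0.07, SE), each with an adjusted p of 0.999 in limma. Among the 8 tested genes of the germline DMR class the differences lay between -0.05 and 0.03. That class was assigned by gene and leaves out Grb10, whose peak lies at an internal start. With its difference of 0.12, Grb10 stood outside this range, so the range holds only for the class as assigned.

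The difference between K27M and Control was then compared between regions with the interaction term. No promoter passed the adjusted threshold (0%), and 433 (3.77%) had an unadjusted p under 0.05, among them 2 of the 16 imprinted genes. Grb10 measured 2.87, 2.81 and 3.25 in Control brainstem, 3.77, 3.66 and 2.95 in K27M brainstem, 3.12, 3.15 and 3.399 in Control telencephalon and 3.10, 3.91, 3.52 and 3.06 in K27M telencephalon. Its K27M minus Control log2 difference was 0.25 ± 0.10 (SE) in brainstem and -0.02 ± 0.09 (SE) in telencephalon, and the interaction of 0.27 ± 0.13 (SE) had an adjusted p of 1.0 in limma. Inpp5f differed by 0.26 ± 0.10 (SE) in brainstem and -0.01 ± 0.09 (SE) in telencephalon, with an interaction of 0.27 ± 0.13 (SE) and an adjusted p of 1.0 in limma. H13 was the third by p, with an interaction of 0.30 ± 0.16 (SE) and the same adjusted p in limma. Its values were 3.36, 2.48 and 2.81 in Control brainstem, 3.19, 3.62 and 2.74 in K27M brainstem, 3.20, 2.66 and 2.91 in Control telencephalon and 3.24, 2.91, 2.83 and 2.64 in K27M telencephalon. As listed, the fold enrichments of the genotypes overlapped within brainstem in each of the 3 genes. After centring on the library medians, which is the scale of the fit, H13 still overlapped, whereas all K27M brainstem values of Grb10 (-0.09, 0.03 and -0.13 on the log2 scale) and Inpp5f (0.61, 0.34 and 0.55) lay above those of Control brainstem (-0.28, -0.26 and -0.33, and 0.25, 0.22 and 0.29). Brainstem genotypes did not overlap on this scale in 2 of the 16 imprinted genes and in 8.31% of all promoters. The interaction of H13 moved with single libraries. It was 0.48 without K27M brainstem culture 41 or K27M telencephalon culture 41, and 0.20 without Control brainstem culture 59 or K27M brainstem culture 59. Leaving out either library of culture 41 gives nearly the same fit, since the other is then alone in its block.

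**Figure D4:**
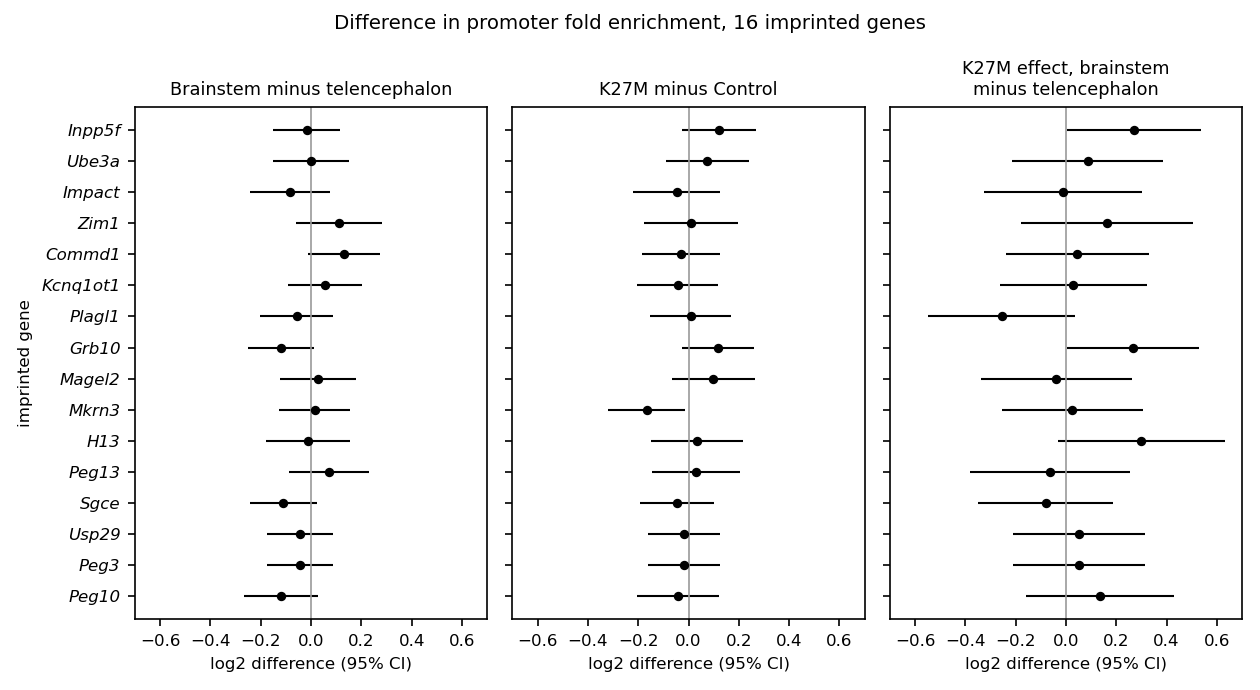
Log2 difference in promoter fold enrichment (horizontal axes, points with 95% intervals from limma) for the 16 imprinted genes found in all libraries (vertical axis, ordered by mean fold), by region, by genotype and for the interaction. Points lie between -0.17 and 0.13 by region and genotype and between -0.26 and 0.30 for the interaction, and none passed the adjusted threshold.

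Zim1, a maternally expressed zinc finger gene beside Peg3, had the largest SD over libraries of the imprinted genes. Its fold enrichment was 3.48, 3.67 and 4.95 in Control brainstem, 4.38, 4.16 and 3.63 in K27M brainstem, 3.24, 2.71 and 5.12 in Control telencephalon and 3.09, 5.16, 2.76 and 3.61 in K27M telencephalon. The highest and lowest values both came from telencephalon, so that its SD of 0.85 (n = 13) was spread within groups. Plagl1 ran from 2.49 to 3.97 and Magel2 from 2.35 to 3.92, each with the extremes in different groups.

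Within gene bodies, the 37 imprinted genes held 70 merged peaks outside their promoter windows over 1795.0 kb. Counted for each gene they lie in, they were 71, since 1 lies within both Airn and Igf2r, or 3.96 per 100 kb, near the 4.21 per 100 kb of protein-coding genes. The largest numbers were in Usp29 (14), Airn (9) and Ddc (8). The peaks of Usp29 were called in 1 to 10 libraries, the most frequent at chr7:6925882-6926826 with a mean fold of 2.93 ± 0.34 (SD, n = 10). That of Airn at chr17:12768792-12770218, found in 12 libraries, is the promoter peak of Igf2r. In Ddc, whose promoter was seldom called, peaks at chr11:11851772-11852412 and chr11:11855035-11856297 were each found in 9 libraries. A body peak of Zdbf2 (chr1:63293439-63294952) was found in 9 libraries at 3.58 ± 0.39 (SD), more often and at a higher fold than its promoter (6 libraries, 2.72 ± 0.37).

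Only 2 body peaks of imprinted genes were found in all 13 libraries, in H13 (chr2:152705640-152707735) and in Inpp5f (chr7:128671662-128673365). With the promoter peaks, 17 merged peaks of imprinted genes entered the limma fit over 13075 merged peaks. By region 3 of all merged peaks passed the adjusted threshold (0.0229%) and 832 had an unadjusted p under 0.05 (6.36%), none of them imprinted. The imprinted peaks of smallest p were the promoter of Commd1 (0.14 ± 0.07, SE), the body peak of Inpp5f (-0.14 ± 0.08, SE) and the promoter of Grb10 (-0.11 ± 0.07, SE), with adjusted p of 0.814, 0.82 and 0.842 in limma. By genotype none of all merged peaks passed (0%) and 586 had an unadjusted p under 0.05 (4.48%), among them the body peak of H13 and the promoter peak of Mkrn3.

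The H13 body peak, near the 3′ end of the gene, measured 3.92, 3.51 and 3.96 in Control brainstem, 4.90, 3.88 and 4.03 in K27M brainstem, 3.52, 2.72 and 3.35 in Control telencephalon and 4.24, 4.89, 3.47 and 4.22 in K27M telencephalon. K27M libraries were higher on average and overlapped the Controls. The log2 difference, K27M minus Control, was 0.24 ± 0.08 (SE), with an unadjusted p of 0.00455 and an adjusted p of 0.882 in limma, so that it did not pass. Mkrn3 stood at -0.16 ± 0.08 (SE) and the promoter of Inpp5f at 0.12 ± 0.07 (SE), both with an adjusted p of 0.999 in limma.

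Other imprinted genes and the genes that maintain imprints were counted beside these. Of 42 further imprinted genes, 10 had a promoter peak in all 13 libraries (23.81%) and 13 in none (30.95%). Over all protein-coding genes these shares were 41.96% and 30.63%. Of 19 genes that set, keep or erase imprints, 13 were found in all libraries (68.42%) and 1, Dppa3, in none (5.26%). The former included Zfp57 (mean fold 3.35), Trim28 (2.94), Dnmt1 (3.80), Uhrf1 (3.54) and Ctcf (2.95), which guard methylated copies, copy methylation at replication or bind unmethylated copies. Dnmt3l, a cofactor of methylation in germ cells, was found in 2 libraries. None of the 10 and 13 genes of these lists passed the adjusted threshold of the promoter fit by region, genotype or interaction.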

How the data were processed

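ATAC-seq peak lists of 13 cultured OPC libraries were analysed, 1 list per library. Per the labels and methods, the authors used the nf-core pipeline with Trim Galore 0.6.7, cutadapt 3.4, BWA 0.7.17-r1188 on mm10 and MACS2 2.2.7.1 broad calls on single libraries, after removal of blacklisted reads. The deposited lists hold for each peak a fold enrichment (a ratio to the local background), −log10 p-values and −log10 q-values, and a score, which served as a check on the columns. The call threshold is not given in the sources used here, and the lowest deposited −log10 q was 1.00. Values were not normalised between libraries.

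Promoters were windows of 2 kb upstream to 1 kb downstream of each GENCODE M21 start, and an overlap of 1 bp counted. Detection was compared with Fisher's exact test and log2 fold with limma 3.58.1 (R 4.3.3), as described above, with scripts tested on simulated data. Culture number was kept as a block because the study assayed matched culture pairs together. Deviations of same-numbered libraries from their group means correlated weakly (mean r 0.081 over 16 pairs, -0.105 to 0.288, 7 over 0.1), against a mean of -0.028 over 47 other pairs. P-values measure the spread between cultures. Merged peaks joined overlapping peaks of all libraries. The genes, lists and tests were chosen with earlier results of these data known. Genes named with values in every library were those with a promoter peak in 1 to 12 libraries, the 3 with the smallest p in each comparison, and the 3 highest and 3 lowest percentiles among genes found in all libraries. The H19 upstream peak, the RefSeq start of Ndn and genes added beyond this rule were chosen after their values were seen.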

Additional observations from a re-analysis of the deposited data

How the results depend on the processing

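The 16 imprinted genes found in all libraries became 7 at equal peak number and 2 with strict peaks, remained 16 with an overlap of 200 bp or a window of 500 bp around starts, and ranged from 16 to 23 when 1 library was left out, the 23 being without Control telencephalon culture 59. Among the 31 genes with RefSeq starts, 12 by GENCODE and 11 by RefSeq were found in all libraries, an alternative chosen after seeing the data.

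Over all features, 2 promoters passed by region. This became 4 with no replicate block, 4 with quantile normalisation, 6 for promoters in at least 10 libraries, 1 with the narrow window, 0 with no centring and 0 with strict peaks, and ran from 2 to 6 when a library was left out. For merged peaks by region the count of 3 became 15 in at least 10 libraries, 0 with no centring, 0 with within-list percentiles and 0 with strict peaks, and ran from 0 to 4 when a library was left out. By genotype the count of 0 promoters ran from 0 to 1 (1 without K27M brainstem culture 61), and that of 0 merged peaks became 1 in at least 10 libraries and ran from 0 to 2 (2 without K27M telencephalon culture 59). The causes were not tested. The interaction gave 0 under every alternative. Promoter detection also gave 0 calls under every alternative, with culture number as a replicate block (exact test within cultures) included. With so few libraries no single promoter could pass these detection tests alone, least of all the exact test within cultures. These 0 calls are therefore not a check of the detection result.

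The 9 differences of Commd1, Grb10, Peg10, Mkrn3, Inpp5f and H13 were named for the smallest p in the promoter fits. They kept their direction and their side of the threshold under all alternatives that gave a value, 171 values in all. Their adjusted p was 0.952 or more in limma, so a change of side was hardly possible. The alternatives also use the same libraries, so these values are not an independent check. Without centring, the interaction was 0.16 for Grb10, 0.16 for Inpp5f and 0.19 for H13. Without centring, the median interaction of all promoters shifted to -0.10 on the log2 scale, and the share of positive differences by region was 84.8% against 45.43%. Depth is unknown, so an absent peak limits every count given for genes found in few libraries.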
